A study of Mus musculus with 20 samples.

Results

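The expression of the lysosomal cathepsins and of prosaposin was examined in the Cre-less AAV mouse model of kidney cancer. The members were chosen by gene name. They are the 10 genes Ctsa, Ctsb, Ctsc, Ctsd, Ctsh, Ctsk, Ctsl, Ctss, Ctsz and Psap, of the 54532 genes in the count table, and they were set against the macrophage content of the same tissue. All 10 passed the filter for low counts, which left 15354 genes. The tissue came from C57BL/6 mice of both sexes that carried the LSL-Cas9/+ and Pax8 Cre/+ alleles, so that Cas9 was made in Pax8-expressing cells, which in the kidney are mainly tubule cells. As young adults they received, by injection into the kidney, an adeno-associated virus (AAV) without Cre that encoded sgRNAs for Vhl, Pbrm1, Keap1 and Tsc1. RNA was sequenced from 10 tumors of 10 mice and from normal kidney regions that the submitters attribute to those mice, so both groups came from animals with the same alleles and injection. The age of the mice when the tissue was taken is not given in the sources used here.

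Total counts ran from 18447394 to 24902973 in tumors, and those of normal kidneys from 14737516 to 26679704. Of the targeted genes, Vhl and Tsc1 were lower in tumors (log2 fold changes of -0.49 and -0.61), Keap1 was higher (0.83), and the log2 fold change of Pbrm1 was -0.28 (edgeR adjusted p = 0.00172, 0.00883, 1.38e-07 and 0.23). The renal epithelial genes Pax8 and Cdh16 were present in both groups, at means of 159 and 789 CPM in tumors, whereas Epcam was at a mean of 1.88 CPM in tumors against 145 CPM in the kidneys. Of 7 renal epithelial genes listed, 4 were lower in tumors (Epcam, Cdh1, Krt18 and Pax2) and 1 was higher (Krt8). Of all genes tested, 23.8% were lower and 23.6% higher. Some libraries stood apart. Tumor 7 had the highest levels among tumors of macrophage, leukocyte, neutrophil and fibroblast markers, except for the macrophage gene Cx3cr1, which was lowest there at 1.66 CPM. Normal kidneys 5, 7 and 8 had Lcn2, a tubule injury marker, at 2538, 3302 and 1765 CPM, against at most 232 CPM in the other 7. Normal kidney 9 had a TMM factor (the scaling of its library size) of 0.749, where the other kidneys had 1.03 to 1.14. CPM are counts relative to the TMM-scaled library size.

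Cathepsins are proteases that do most of their work in the acid interior of the lysosome. Ctsb, Ctsc, Ctsh, Ctsk, Ctsl, Ctss and Ctsz encode cysteine proteases, Ctsd an aspartic protease and Ctsa a serine carboxypeptidase. Psap encodes prosaposin, which lysosomal proteases cut into the saposins, small proteins that present sphingolipids to the hydrolases that degrade them. Most members are made in nearly every cell, and renal tubule cells use them to digest filtered protein. Ctss is best known from macrophages and other antigen-presenting cells, Ctsc from the activation of granule proteases in leukocytes, and Ctsk from the breakdown of collagen by osteoclasts. Macrophages are rich in lysosomes, which is why macrophage markers are given beside the members.

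Of the 10 members, 7 were higher in tumors and 0 were lower (quasi-likelihood test of edgeR, Benjamini-Hochberg adjusted p under 0.05 over all genes tested). Of all genes tested, 23.6% were higher and 23.8% were lower. The log2 fold changes were 2.89 for Ctsb, 2.38 for Ctsz, 2.27 for Ctsa, 2.24 for Psap, 2.01 for Ctsl, 1.77 for Ctsd and 0.96 for Ctss. With the study's limits, a log2 fold change over 1 and p under 0.001, 6 members were higher, all of these but Ctss, as were 8.84% of all genes. For the same 6 members no tumor reached down to the highest normal kidney, which held for 5.87% of all genes tested. Ctsc, Ctsk and Ctsh did not pass the test. Together the members took up 2.37% ± 0.292 of all counts in tumors, against 0.534% ± 0.213 in normal kidneys (n = 10 each, SD). RNA of whole tissue was measured, so more cells of a type and more RNA per cell cannot be told apart. The plot of log2 CPM by library shows all members.

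**Figure D1:**
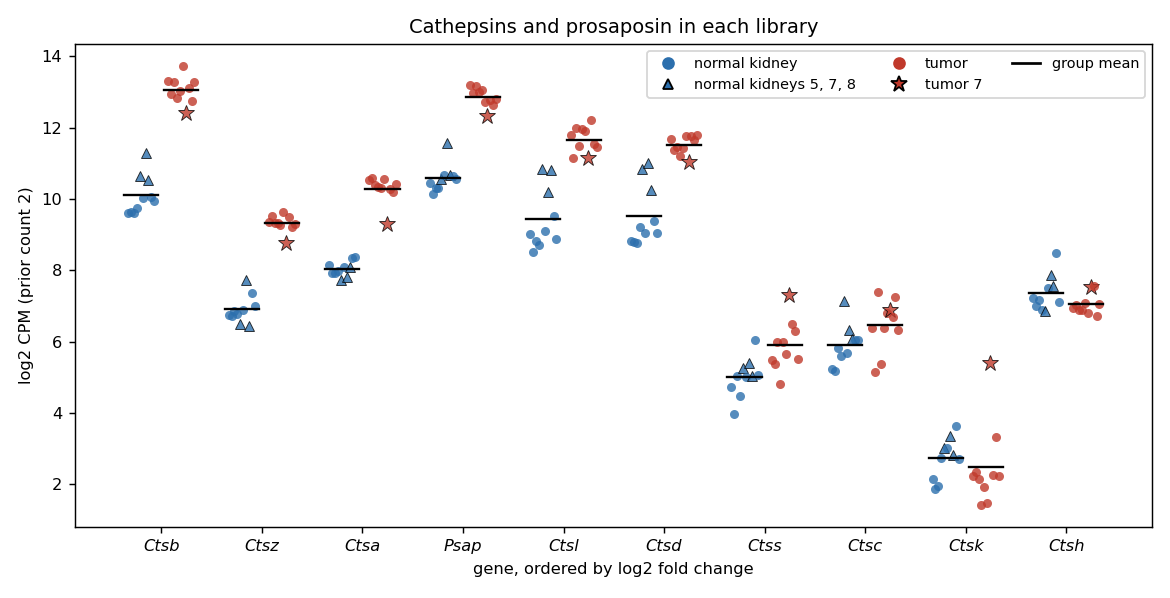
Expression of the 10 members in each library as log2 CPM (vertical axis, prior count 2), with normal kidneys in blue, tumors in red and group means as black lines. For Ctsb, Ctsz, Ctsa, Psap, Ctsl and Ctsd the 10 tumors lie above all normal kidneys, and tumor 7 (star) is the lowest tumor for each of them and the highest for Ctss and Ctsk.

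Psap (ENSMUSG00000004207), on chromosome 10 from 60277627 to 60302597 in GRCm38, is the only member here that is no protease. It measured between 5170 and 9356 CPM in tumors, with a median of 7595, and between 1124 and 3035 CPM in normal kidneys, with a median of 1509. The groups did not overlap, and the lowest tumor lay 1.70 times above the highest normal kidney. The log2 fold change was 2.24 ± 0.175 (SE), a 4.74-fold difference (edgeR adjusted p = 1.42e-09). Among normal kidneys the library of kidney 7 was apart, at 3035 CPM against at most 1637 CPM in the others, and without kidneys 5, 7 and 8 the log2 fold change was 2.44.

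Ctsa (ENSMUSG00000017760), on chromosome 2 from 164832873 to 164841032, encodes the protective protein that holds beta-galactosidase and neuraminidase 1 in a complex. It measured between 627 and 1537 CPM in tumors (median 1319) and between 211 and 329 CPM in normal kidneys (median 260). The other 9 tumors lay close together, between 1162 and 1537 CPM, while tumor 7 was apart at 627 CPM, still above every normal kidney. Ctsa was 4.82 times higher in tumors (log2 fold change 2.27 ± 0.146, SE; edgeR adjusted p = 9.89e-11).

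Ctsb (ENSMUSG00000021939), on chromosome 14 from 63122462 to 63145923, encodes cathepsin B, which cuts both within proteins and from their carboxyl end. It had the largest fold change of the members. Its values were between 5453 and 13584 CPM in tumors (median 8615) and between 775 and 2479 CPM in normal kidneys (median 1011). The lowest tumor was 2.20 times above the highest normal kidney. The fold was 7.44 (log2 fold change 2.89 ± 0.234, SE; edgeR adjusted p = 2.38e-09).

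Ctsz (ENSMUSG00000016256), on chromosome 2 from 174427493 to 174439039, encodes a carboxypeptidase that removes amino acids from the end of a chain. It measured between 434 and 796 CPM in tumors (median 638) and between 87.0 and 211 CPM in normal kidneys (median 113). Tumor 7 was again the lowest tumor and stood apart from the others, which were all at 588 CPM or above. The fold was 5.19 (log2 fold change 2.38 ± 0.160, SE; edgeR adjusted p = 1.74e-10).

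Ctsd and Ctsl encode endopeptidases, which cut within proteins. Ctsd (ENSMUSG00000007891), on chromosome 7 from 142375911 to 142388038, measured between 2113 and 3538 CPM in tumors (median 3012) and between 435 and 2041 CPM in normal kidneys (median 564). Ctsl (ENSMUSG00000021477), on chromosome 13 from 64359337 to 64370890, measured between 2263 and 4763 CPM in tumors (median 3267) and between 366 and 1818 CPM in normal kidneys (median 533). For both genes the tumors lay above every normal kidney, but for Ctsd only narrowly, by 1.04 times, and for Ctsl by 1.24 times. The log2 fold changes were 1.77 ± 0.295 for Ctsd and 2.01 ± 0.308 for Ctsl (SE; edgeR adjusted p = 4.60e-05 and 1.58e-05).

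The normal kidneys fell into separate sets for Ctsd and Ctsl. Kidneys 5, 7 and 8 had 1831, 2041 and 1216 CPM of Ctsd, against 435 to 665 CPM in the other 7 kidneys. For Ctsl they had 1818, 1166 and 1788 CPM, against 366 to 728 CPM. For Ctsb they had 1586, 2479 and 1486 CPM, against 775 to 1073 CPM. The same kidneys were high in the injury genes Lcn2 (above), Havcr1 (163, 1347 and 128 CPM against 3.18 to 35.7 CPM) and Sox9 (96.5, 68.5 and 88.2 CPM against 2.04 to 7.67 CPM). Vcam1, another gene of the injury list, was not, at 21.4, 34.5 and 26.3 CPM against 12.8 to 35.4 CPM. These injury genes were chosen after the values were seen, and their part in the cathepsin levels was not tested. Ctsa was not high in these kidneys, at 211, 225 and 271 CPM against 242 to 329 CPM in the others. Without kidneys 5, 7 and 8 the log2 fold changes were 2.51 for Ctsd, 2.74 for Ctsl and 3.29 for Ctsb. For Ctsd this is 5.71-fold against 3.40-fold with all kidneys. Kidneys 5, 7 and 8 were the highest normal kidneys for Ctsd, Ctsl and Ctsb, so leaving them out had to raise these changes.

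Ctss (ENSMUSG00000038642), on chromosome 3 from 95526786 to 95556403, encodes cathepsin S, which trims the invariant chain of MHC class II. Its values were between 28.2 and 159 CPM in tumors (median 56.9) and between 15.7 and 65.7 CPM in normal kidneys (median 32.7). The groups overlapped, and only 3 of 10 tumors were above every normal kidney. Tumor 7 was the highest tumor, followed by tumor 8 at 90.5 CPM. The log2 fold change of 0.96 ± 0.274 (SE) passed the test (edgeR adjusted p = 0.00642), and without tumor 7 it was 0.72 (adjusted p = 0.0133).

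Ctsc (ENSMUSG00000030560), on chromosome 7 from 88278085 to 88310888, encodes a dipeptidyl peptidase that activates granule proteases in leukocytes. It measured between 35.4 and 169 CPM in tumors (median 93.8) and between 36.3 and 140 CPM in normal kidneys (median 61.2). Its log2 fold change of 0.59 ± 0.272 (SE) did not pass the test (edgeR adjusted p = 0.0805). In an edgeR fit that paired libraries by replicate number, which no source ties to a mouse, Ctsc passed narrowly (0.55, adjusted p = 0.0497). Kidney 5 was the highest normal kidney, and without it the change passed the test (0.79, adjusted p = 0.0132), as it did without tumor 2 or tumor 4 (0.69 and 0.68, adjusted p = 0.0314 and 0.039). In the other 17 of 20 fits that left out 1 library, Ctsc did not pass. Over all 32 alternatives run it passed in 6.

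Ctsh (ENSMUSG00000032359), on chromosome 9 from 90054152 to 90076089, encodes an aminopeptidase. It was measured between 104 and 187 CPM in tumors (median 126) and between 116 and 355 CPM in normal kidneys (median 147), with normal kidney 9 highest. The log2 fold change was -0.37 ± 0.187 (SE; edgeR p = 0.0592, adjusted p = 0.106). Without normal kidney 9 it was -0.21 (adjusted p = 0.242). Upper quartile factors and plain library totals, which shifted the median of all genes from -0.02 to -0.14, gave -0.49 and -0.44 (adjusted p = 0.0372 and 0.0255).

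Ctsk (ENSMUSG00000028111), on chromosome 3 from 95499256 to 95509362, encodes the collagen-degrading cathepsin K and had the lowest values of the members. Tumor 7 measured 41.7 CPM, and the other 9 tumors between 2.58 and 9.83 CPM. Normal kidneys measured between 3.54 and 12.4 CPM, so 9 tumors lay within or below their range. The log2 fold change of 0.26 ± 0.454 (SE; edgeR adjusted p = 0.663) was set by tumor 7 and was -0.58 without it (adjusted p = 0.0721). In tumor 7 the 8 fibroblast genes listed, which include Col1a1 and Col3a1, summed to 8197 CPM, against 149 to 655 CPM in the other tumors. Of the osteoclast genes, Oscar, Ocstamp and Dcstamp averaged 0.117, 0.411 and 0.0269 CPM in tumors. Calcr averaged 0.928 CPM in tumors, with a log2 fold change of -0.78 (edgeR adjusted p = 0.221). Acp5, the phosphatase known from osteoclasts and macrophages, was 6.03 times higher in tumors, and Nfatc1, a transcription factor also active outside osteoclasts, averaged 22.2 CPM and was 1.41 times higher (edgeR adjusted p = 1.26e-09 and 0.024).

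Levels of different genes were compared per gene length, as TPM, which have the same sum in each library. In tumors the order of mean TPM was Psap, Ctsb, Ctsd, Ctsl, Ctsz, Ctsa, Ctss, Ctsh, Ctsc and Ctsk. Psap averaged 7271 ± 1063 TPM (SD, n = 10), Ctsb 3824 ± 816 and Ctsd 3341 ± 530 TPM, while Ctsa averaged 715 ± 129, Ctss 134 ± 89.9 and Ctsk 16.1 ± 24.9 TPM. The mean ± SD ranges of Ctsb and Ctsd overlapped, as did those of Ctsl and Ctsz and of all neighbours from Ctss to Ctsk. Within single tumors the order of each of these pairs still held in 8 or 9 of 10. In normal kidneys the order began with Psap (1553 ± 518 TPM), Ctsd (999 ± 708) and Ctsb (524 ± 238), and the ranges of neighbours overlapped down to Ctsa. Ctsb was above Ctsd in 8 of 10 tumors, and Ctsd was above Ctsb in all 10 normal kidneys. By mean TPM over all genes of the table, Psap ranked 11 in tumors and 44 in normal kidneys, Ctsb 23 and 200, and Ctsl 67 and 348. The lengths are those of the count table, so the isoforms in use could shift these levels.

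**Figure D2:**
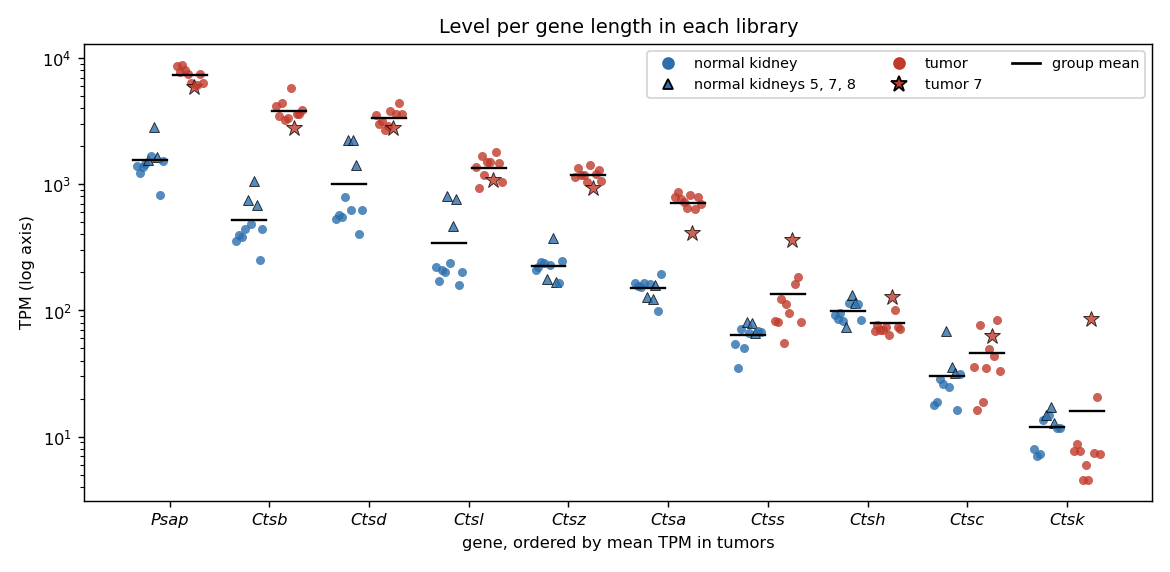
Level of each member per gene length in each library as TPM (vertical axis, log scale), with normal kidneys in blue, tumors in red and group means as black lines. Psap has the highest mean in both groups (7271 TPM in tumors, 1553 TPM in normal kidneys) and Ctsk the lowest.

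Macrophage content was estimated by an index, the mean log2 CPM of 16 macrophage genes such as Adgre1, Csf1r, C1qa, Mrc1 and Lyz2, none of which is a member. Of these 16 genes, 11 were higher in tumors and 0 lower, with a median log2 fold change of 1.25, and 6 were higher without tumor 7. In tumors the index had a median of 3.69 and ran from 3.18 to 6.02, and the normal kidneys had a median of 3.06 and ran from 2.32 to 3.19. Of the 10 tumors, 9 were above every normal kidney. The difference of the means was 1.04 (permutation test, two-sided, p = 2e-05), and tumor 7 (6.02) and tumor 9 (4.80) were highest. The summed CPM of the list ran from 347 to 2638 in tumors and from 172 to 677 in normal kidneys. Of 6 genes that lipid-laden macrophages share with other lysosome-rich cells, 5 were higher, with a median log2 fold change of 2.51. The changes were 6.85 for Gpnmb, 3.48 for Cd68 and 3.10 for Lgals3 (edgeR adjusted p = 2.20e-07, 8.75e-06 and 1.33e-07). Among the other cell types, 2 of 7 general leukocyte genes and 2 of 5 tested neutrophil genes were higher, 3 of 4 tested dendritic cell genes and 4 of 10 proximal tubule genes were lower, and of 8 fibroblast and 7 endothelial genes 1 each was higher and 1 lower. Of 4 T cell genes tested 1 was lower, as was the 1 B cell gene tested. Beside these counts, 23.6% of all genes tested were higher and 23.8% were lower, so several of them lie near that share. Without tumor 7, 0 leukocyte genes and 1 neutrophil gene were higher, 1 fibroblast gene was higher and 3 were lower, and 1 endothelial gene was higher and 2 were lower. The part of these cell types in the levels of the members was not tested.

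Each member was then set against the index. The change of a member in log2 CPM minus that of the index was positive and passed the permutation test, with adjustment over all genes tested, for 5 members. These were Ctsb (1.92, adjusted p = 0.00146), Ctsz (1.38, 0.00428), Psap (1.24, 0.00848), Ctsa (1.21, 0.0144) and Ctsl (1.19, 0.0272). Of all genes tested, 3.61% rose more than the index in this way and 64.5% fell short of it. The index holds none of the 6 lysosome-rich genes above, whose median log2 fold change was 2.51. The members were not tested against an index of those genes. For Ctsd the difference was 0.97 (adjusted p = 0.0582), and without tumor 7 the value of Ctsd minus macrophage index was 1.25 (adjusted p = 0.00759). Ctsh and Ctsk fell short of the index, by -1.35 and -1.28 (adjusted p = 0.000125 and 0.000233). For Ctss the difference was -0.14 (adjusted p = 0.53) and for Ctsc -0.49 (adjusted p = 0.211). For Ctsa, Ctsb, Ctsz and Psap, 8 of 10 tumors were above every normal kidney by this measure and tumor 7 was below all of them. For Ctsl only 2 tumors were above every normal kidney, and for Ctsd 0 were. The share of all genes separated in this way was not computed.

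With the index as a covariate in the edgeR fit, the differences between tumors and normal kidneys were as large as before for the members with the largest changes. The log2 fold changes were 3.07 for Ctsb, 2.52 for Ctsa, 2.46 for Ctsz, 2.34 for Psap, 2.15 for Ctsl and 1.87 for Ctsd, and the largest of their adjusted p was 0.000381. For Ctss it was 0.17 (adjusted p = 0.582) against 0.96 without the covariate, and for Ctsc 0.31 (adjusted p = 0.505). Ctsh and Ctsk were lower in tumors in this fit, at -0.67 and -1.51 (adjusted p = 0.0155 and 0.000229). Without tumor 7 the fit gave between 1.75 and 2.94 for Ctsa, Ctsb, Ctsd, Ctsl, Ctsz and Psap, and 0.15 for Ctss (adjusted p = 0.674). The index and the group are related, since 9 tumors lie above the normal kidneys, so the fit divides a shared difference between them.

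**Figure D3:**
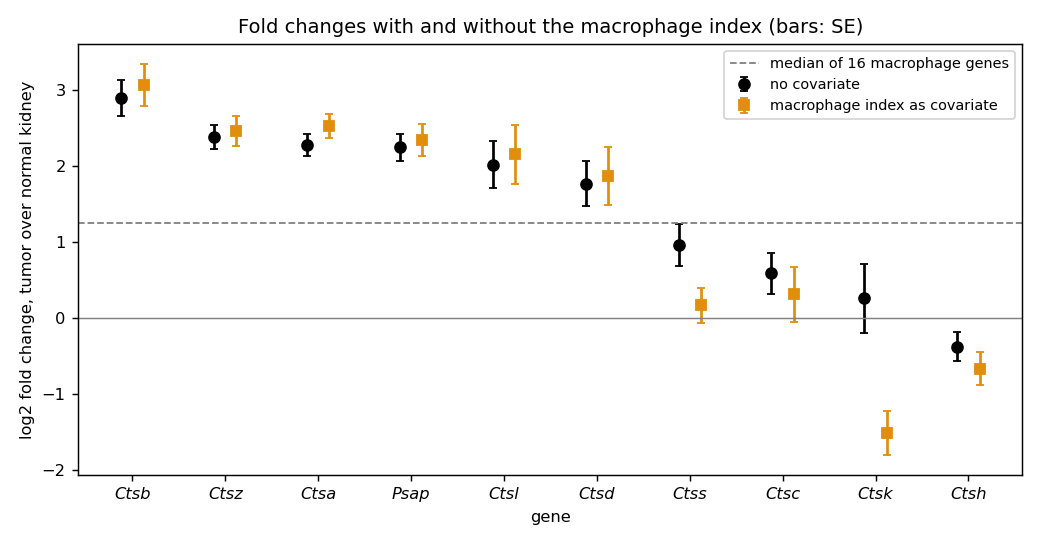
Log2 fold change of tumor over normal kidney for each member (vertical axis, bars are SE) without a covariate (black circles) and with the macrophage index as a covariate (orange squares). Ctsb, Ctsz, Ctsa, Psap, Ctsl and Ctsd lie above the median of the macrophage genes (dashed, 1.25) in both fits, and Ctss moves from 0.96 to 0.17.

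The members were also compared with the index among the libraries of each group, where 1 of 20 relations, Ctsk in tumors by r, passed after adjustment. For Ctss in tumors, r was 0.86 and rho 0.71 (n = 10, permutation p = 0.00174 and 0.0264, adjusted over all genes in both groups 0.0504 and 0.325), and 0.62 was left as r without tumors 7 and 9, the farthest from the median index. For Ctsk, r was 0.94 and rho 0.76 (n = 10, permutation p = 0.00049 and 0.0153, adjusted p = 0.0384 and 0.271), and without tumors 7 and 9 it was 0.58. For Ctsa, r was -0.88 and rho -0.53 (n = 10, permutation p = 0.006 and 0.123, adjusted p = 0.0806 and 0.511), and without tumors 7 and 9 it was -0.23, so that this relation rests on these tumors. Psap, Ctsz and Ctsb also had negative r, of -0.76, -0.78 and -0.64 (n = 10, permutation p = 0.0128, 0.0201 and 0.0531), and without tumors 7 and 9 the r were -0.06, 0.06 and 0.16. Among normal kidneys Ctsh had r of 0.72 and rho of 0.94 (n = 10, permutation p = 0.0175 and 0.00019, adjusted p = 0.135 and 0.0686), and without kidneys 2 and 5 it was 0.70.

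**Figure D4:**
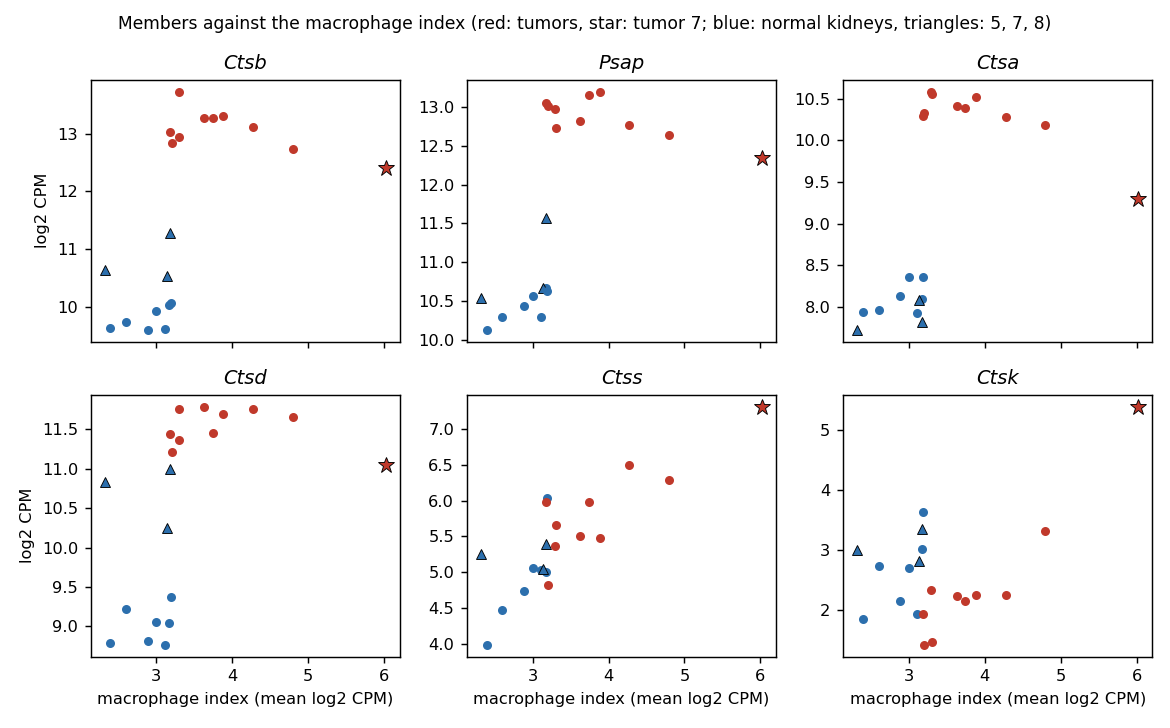
Log2 CPM of 6 members (vertical axes) against the macrophage index (horizontal axes, mean log2 CPM of 16 genes) in each library, with tumors in red and normal kidneys in blue. At an index near 3.2, where both groups have libraries, the tumors lie above the normal kidneys for Ctsb, Psap and Ctsa, while for Ctss the groups overlap, and tumor 7 (star) is at the far right.

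Short stretches of the promoters are shown because they hold motifs of factors known to act on lysosomal or macrophage genes. Windows from 250 bases before to 50 bases after the start site (RefSeq, GRCm38.p6) were matched for 8 members, with 10 windows in all, but not for Ctsb and Ctsh. Both strands were searched for TCACGTGA, the core of the CLEAR element known to bind TFEB and TFE3, for the E-box CACGTG, which it contains, and for GAGGAAGT, a core bound by the macrophage and leukocyte factor PU.1. In the lines that follow, capitals mark the matches, a hit on the opposite strand reads ACTTCCTC, and all are written 5′ to 3′ on the strand of the gene.
Ctsa, chr2:164833758-164833787, plus strand: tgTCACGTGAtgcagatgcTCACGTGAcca
Ctsd, chr7:142387908-142387937, minus strand: tcgcccgcgtcTCACGTGAcccgttgaggg
Ctsd, chr7:142388048-142388077, minus strand: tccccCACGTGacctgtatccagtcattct
Ctsl, chr13:64370739-64370768, minus strand: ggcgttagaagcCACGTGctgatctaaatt
Ctsc, chr7:88277923-88277952, plus strand: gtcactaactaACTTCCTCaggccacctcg
Ctss, chr3:95526773-95526802, plus strand: aatgaaagttcACTTCCTCattgtggatgc

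TCACGTGA was found in the windows of 2 members, Ctsa and Ctsd, and in 0.974% of all 32851 promoter windows. Ctsa held it at 2 places, around a start site inside the gene, where 4 of its 16 GENCODE transcripts have an exon, and Ctsd held it 99 bases before its start site, in an exon of 1 of 3 annotated transcripts. The E-box was in 3 members, Ctsa, Ctsd and Ctsl, and in 7.15% of all windows. The PU.1 core was in 2 members, Ctsc, 151 bases before the start, and Ctss, at the start site, and in 3.20% of all windows. The windows of Psap, Ctsz and Ctsk held none of these motifs. TGACNNNGC, the core of the antioxidant response element bound by NRF2, was in the windows of Ctsd, Ctsz and Psap and in 12.4% of all windows. ACGTG, the core of the hypoxia response element, which the E-box contains, was in those of Ctsa, Ctsd and Ctsl and in 19.6% of all windows. Binding was not measured here, and a match describes the letters only.

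Cathepsins are held in check by cystatins and serpins. Of 14 protease inhibitor genes listed, 6 were tested, 2 were higher and 0 lower, with a median log2 fold change of 0.70 against -0.02 over all genes tested. Not all of them need act on the members, and inhibition was not measured. For this list and the sorting and saposin lists below, the shares over all genes were 23.6% higher and 23.8% lower. Cstb, the cytosolic cystatin B, averaged 467 ± 81.1 CPM in tumors, against 110 ± 81.6 CPM in the kidneys (n = 10 each, SD; log2 fold change 2.08, edgeR adjusted p = 1.22e-05). Serpinb6a, an intracellular serpin, was 6.17 times higher (adjusted p = 9.73e-07). For Cst3, the secreted cystatin C, the log2 fold change was 0.47 (adjusted p = 0.0955). Among the other cathepsins, 3 of 13 were tested, and Ctso was higher (0.52, adjusted p = 0.0249), while Ctsf and Ctse had log2 fold changes of 0.21 and -0.45 (adjusted p = 0.44 and 0.655). Without tumor 7, which had the highest Ctse of the tumors at 13.1 CPM, Ctse was lower (-1.61, adjusted p = 0.0464).

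Lysosomal enzymes receive a mannose 6-phosphate tag and are carried from the Golgi by receptors. Of 15 sorting and processing genes, 9 were higher and 1 was lower, with a median log2 fold change of 0.79. Igf2r, the large mannose 6-phosphate receptor, rose from 137 ± 44.1 to 794 ± 336 CPM (SD, n = 10 each; log2 fold change 2.53, edgeR adjusted p = 7.92e-07), and M6pr, the small receptor, rose by 0.40 on the log2 scale (adjusted p = 0.00161). Gnptab and Nagpa, which make the tag, rose by 1.47 and 1.06 (adjusted p = 1.10e-08 and 1.30e-06). Lgmn, the legumain that processes several cathepsins, rose by 1.70 (adjusted p = 2.35e-06), and Grn, the progranulin that binds prosaposin, by 1.41 (adjusted p = 2.01e-07). Sort1, the receptor sortilin, was lower (-0.77, adjusted p = 0.0479), a call lost in 14 of 20 fits that left out a library.

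The saposins act together with sphingolipid hydrolases. Of 11 listed partners of prosaposin and the saposins, 9 were tested, 8 were higher and 0 lower, with a median log2 fold change of 1.18. Gpr37 and Gpr37l1, which encode no hydrolases, were listed but not tested. Hexa, the alpha subunit of beta-hexosaminidase, was 12.4 times higher in tumors (774 ± 186 against 62.3 ± 20.1 CPM, SD, n = 10 each; edgeR adjusted p = 5.22e-11). Glb1, the beta-galactosidase, and Neu1, the neuraminidase, both partners of Ctsa, rose by 3.02 and 1.01 (adjusted p = 1.54e-09 and 0.000354). Gla, the alpha-galactosidase, rose by 2.12 (adjusted p = 1.63e-07). For Smpd1, the acid sphingomyelinase, the log2 fold change was 0.15 (adjusted p = 0.475).

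**Figure D5:**
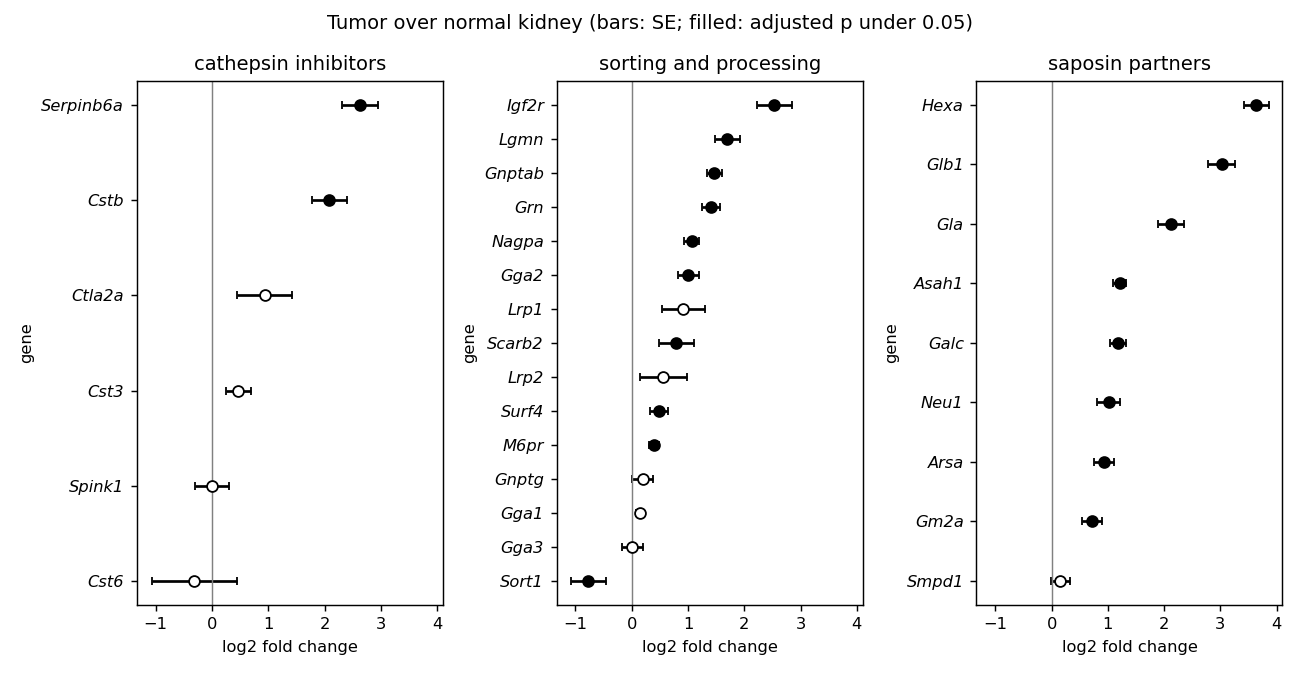
Log2 fold change of tumor over normal kidney (horizontal axis, bars are SE) for the tested genes of the inhibitor list, genes of sorting and processing, and saposin partners. Filled points passed the test (edgeR adjusted p under 0.05), which were 2 of 6, 10 of 15 and 8 of 9 genes, with Sort1 the gene that passed on the side of normal kidneys.

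Deviations from the group means were compared over the 20 libraries, as a description that libraries such as tumor 7 and normal kidneys 5, 7 and 8 can dominate. Ctsb, Ctsd and Ctsl varied together, with r of 0.88 for Ctsb and Ctsd, 0.86 for Ctsd and Ctsl and 0.76 for Ctsb and Ctsl. Ctsk and Ctss had r of 0.79, while Ctsa and Ctsk had r of -0.66. The protein-coding genes most like Ctsd were Spp1, Tmem43 and Dap (r = 0.94, 0.94 and 0.93), and those most like Ctss were Fcgr3, Samsn1 and Lrrc25 (r = 0.91, 0.90 and 0.89). The genes most like Ctsk were Cxcl14, Lhfp and Lox (r = 0.95, 0.94 and 0.94), and those most like Ctsb were Dpysl3, Sdcbp and Ctsd (r = 0.89, 0.88 and 0.88). For Psap they were Anxa3, Irak1 and Cpe (r = 0.86, 0.84 and 0.84), for Ctsa Aph1c, Tpra1 and Akap1 (r = 0.92, 0.91 and 0.91) and for Ctsc Tlr4, Bhlhe40 and Tnfrsf1b (r = 0.82, 0.79 and 0.78). For Ctsl they were Acat3, Carhsp1 and Sat1 (r = 0.91 each), for Ctsh Nsa2, Ppdpf and Psmb3 (r = 0.91, 0.90 and 0.89) and for Ctsz Pgam1, Gstm6 and Ccng1 (r = 0.88, 0.84 and 0.83).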

How the data were processed

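RNA of flash-frozen, pulverized tissue was extracted with Trizol, and poly A libraries were made and sequenced as read pairs by a company. The authors deposited raw gene counts, not normalized, with gene lengths. The build named in the submitters' processing notes is mm10. The aligner, the counting tool and the use of strand are not given in the sources used here, so overlapping and antisense genes carry uncertain counts. Samples were grouped by their titles, 10 tumors and 10 normal kidneys, and 0 columns of per-sample values were left unused. Over 90 pairs of libraries within a group, chi-square per degree of freedom was at least 13.98, so no library was a copy of another.

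Counts were scaled by TMM and tested with edgeR 4.0.16 (R 4.3.3; quasi-likelihood, robust, 0 rows without a gene name, filter minimum 10). DESeq2 1.42.0 and limma 3.58.1 were alternatives. Log2 CPM used a prior count of 2. TPM were computed from the counts and the lengths. Permutation tests were two-sided with 100000 resamples (seed 20241). Where a group had 9 libraries they were exact. P-values for the members against the macrophage index and for the correlations were adjusted over all genes tested, not over the members alone as first laid down. Before use the edgeR, DESeq2 and limma tests were tried on simulated counts, and the permutation tests on simulated normally distributed values. Total counts of 14737516 to 26679704 per library set the precision, and p-values measure the spread between these libraries. The members and gene lists were chosen with earlier results of these data known. Genes named are the members, genes of the lists, and the 3 protein-coding genes most correlated with each member. Leaving out normal kidneys 5, 7 and 8, and leaving out tumor 7 with the covariate, were added after the data were seen. Sequences are from RefSeq windows of GRCm38.p6, and exons from GENCODE vM21 of the same build. Of the saposin partners, 2 genes are not reported here, and the counts for that list leave them out.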

Additional observations from a re-analysis of the deposited data

Results flagged for a closer look

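In 4 of the 22 sets of 10 libraries examined (10 members and the macrophage index, in tumors and in normal kidneys), the highest or lowest library lay farther from the others than Dixon's limit of 0.466 of the range, which chance alone exceeds in about 1 of 20 sets. Tumor 7 was responsible for 3 of these. It was lowest for Ctsa, at 9.29 log2 CPM with the next tumor at 10.18, and lowest for Ctsz, at 8.76 with the next tumor at 9.20. It was highest for Ctsk, at 5.39 log2 CPM with the next tumor at 3.31. In the same library the macrophage index was 6.02, against 3.18 to 4.80 in the other tumors, the neutrophil genes summed to 445 CPM, against 3.48 to 34.6 CPM, and the fibroblast genes summed to 8197 CPM, against 149 to 655 CPM. Its proximal tubule genes summed to 1265 CPM, against 3901 to 10700 CPM in the other tumors, and its renal epithelial genes to 924 CPM, against 1070 to 1667 CPM. By mean log2 CPM the renal epithelial genes were not low in tumor 7, at 6.08 against 4.67 to 6.14. Among the tumors, Pax8, Pax2 and Cdh16 were lowest in tumor 7, and Epcam and Krt18 were highest. Normal kidney 7 was highest for Psap, at 11.57 log2 CPM with the next kidney at 10.68, and had Havcr1 at 1347 CPM, against at most 163 CPM in the other normal kidneys. The part of these markers in the values was not tested.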

How the results depend on the processing

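Over 32 alternatives for each gene (scalings, filter, tests, covariates and left-out libraries), Ctsa, Ctsb, Ctsd, Ctsl, Ctsz and Psap remained higher in tumors and past the threshold in all 32, with log2 fold changes from 1.64 (Ctsd) to 3.38 (Ctsb). Ctss was past it in 30, with values from 0.15 to 1.12, and lost the call in both fits with the macrophage covariate. Between 7 and 8 members were higher when each library was left out, and 0 were lower. The count of members lower was 1 with upper quartile factors, with library totals (Ctsh in both) and with DESeq2 (Ctsk), and 2 with the macrophage index as a covariate, with or without tumor 7. Ctsk turned negative with DESeq2 (-0.58, adjusted p = 0.0489), limma-voom (-0.23), quality weights (-0.34), the covariate (-1.51), the covariate without tumor 7 (-1.28) and without tumor 7 and normal kidney 9 (-0.48), and ranged from -0.58 to 0.40 with each library left out in turn. Of the other listed genes (without the tubule injury genes, and with the 2 genes not reported) 46 were higher and 17 lower, against 25 and 27 with the covariate, 23 higher with the covariate and without tumor 7, 27 lower with quality weights, and 36 to 51 higher and 13 to 22 lower when each library was left out. The macrophage index difference was 0.40 (permutation p = 0.268) with the leukocyte list in its place, and from 0.80 to 1.12 with each library left out in turn. Against the leukocyte list Ctss and Ctsc differed by 0.49 and 0.15 (adjusted p = 0.0551 and 0.804), and against the C1q genes Ctss by 0.0498. The count of members that rose more than the index was 5, and 5 or 6 under all alternatives run. Of the 20 correlations 1 passed the threshold, against 3 with the leukocyte list, 4 with the C1q genes and 0 without tumor 7 and normal kidney 9.

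Deviations of same-numbered libraries had correlations of 0.19 to 0.38 in 9 of 10 pairs and of -0.14 in pair 9. Of the 10 tumors, 8 correlated best with their own number, which points to the numbers pairing the libraries. Since no source ties a number to a mouse and pair 9 went the other way, the fit without the block was kept as the reported one. Pair 9 holds normal kidney 9, the library with the TMM factor of 0.749. With the replicate number as a block 3960 genes were higher and 3864 lower, against 3626 and 3656, Ctsc passed the threshold (0.55, adjusted p = 0.0497), and Ctsk was at -0.27. With the pairing, the difference of the macrophage index in tumors against normal kidneys was 1.04 (exact sign-flip test, p = 0.00195). Of 6 tested genes of the inhibitor list, 4 were higher with the block and 5 with quality weights, against 2. The cause of these changes was not tested.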
